A study of Mus musculus with 18 samples.

Results

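The miR-29 family of the mouse consists of 3 guide strands, miR-29a-3p, miR-29b-3p and miR-29c-3p, (mmu-miR-29a-3p, mmu-miR-29b-3p and mmu-miR-29c-3p in the tables), which were taken by name from the 1841 mature miRNAs counted in small-RNA libraries of mouse brain. A guide strand is the strand of a miRNA hairpin that is loaded into Argonaute, and its partner, the passenger strand, is mostly discarded. The passenger strands of the same hairpins, 4 entries named miR-29a-5p, miR-29b-1-5p, miR-29b-2-5p and miR-29c-5p, were read beside the guides. All 7 strands had reads in each of the 18 libraries.

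The libraries fall into 6 groups of 3 biological replicates, all from male C57BL/6J mice aged 1 month. Cerebellum came from wild-type animals (WT), from Cyrano-/- animals (CyrKO), from animals with a deletion of 18 nt at the miR-671 site of Cdr1as (Cdr1as671) and from animals with both mutations (CyrKOCdr1as671). Hippocampus came from WT and CyrKO animals only, so the Cdr1as mutation was seen in a single tissue. Cyrano is a long noncoding RNA that triggers the destruction of miR-7, and Cdr1as is a circular RNA that carries many miR-7 sites and a site of extensive pairing to miR-671. The labels do not describe the Cyrano allele further. Only miRNAs were counted, so Cyrano and Cdr1as themselves could not be read. The level of miR-7 gives an indirect view of the Cyrano genotype. In cerebellum, mean miR-7a-5p was 496 reads per 1000000 miRNA reads in WT and 590 in Cdr1as671. It was 20026 in CyrKO and 37299 in CyrKOCdr1as671. In hippocampus it was 4314 in WT and 25224 in CyrKO. In each tissue the libraries with and without the Cyrano mutation did not overlap. The Cdr1as deletion was not checked.

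miR-29 guides repress mRNAs of collagens and other matrix proteins, of DNA methyltransferases and of pro-apoptotic BH3-only proteins, and they are known to rise as neurons mature. In target-directed miRNA degradation, an RNA with extensive pairing to a miRNA, beyond the seed, leads to loss of that miRNA through the ubiquitin ligase adaptor ZSWIM8. The Cyrano site for miR-7 is one known trigger. A site in the mRNA of Nrep is another, known for lowering miR-29b in the cerebellum of the mouse. All the groups here are intact for Nrep as far as the labels say, and none tests its site.

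The guides are shown first because their differences lie outside the seed, where extensive pairing acts. The mature sequences come from RefSeq (build GRCm38.p6), written 5′ to 3′ with the seed, bases 2 to 8, in capitals.
miR-29a-3p: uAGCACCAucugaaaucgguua
miR-29b-3p: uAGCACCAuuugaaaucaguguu
miR-29c-3p: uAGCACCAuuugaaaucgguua
The seed AGCACCA is the same in all 3, and they are the only 3 of 1679 mature entries of that RefSeq table that hold it at bases 2 to 8. Counted from 1 at the 5′ end, miR-29c-3p differs from miR-29a-3p by C10U alone, and both are 22 nt long. miR-29b-3p, at 23 nt, differs from miR-29c-3p by G18A, U21G and A22U, besides its extra last base. Since a single base separates miR-29a-3p from miR-29c-3p, and the way reads were assigned was not given in the sources used here, a split of reads between these 2 guides is less certain than that of miR-29b-3p.

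The passenger strands, which differ more among themselves, tell the 2 sources of miR-29b-3p apart. They are given because they serve as a reference for each guide in the ratios that follow.
miR-29a-5p: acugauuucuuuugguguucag
miR-29b-1-5p: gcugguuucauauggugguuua
miR-29b-2-5p: cugguuucacaugguggcuuagauu
miR-29c-5p: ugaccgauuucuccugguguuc
The hairpins stand in 2 clusters, each with 1 copy of miR-29b. The hairpins are shown with the guide in capitals.
Mir29a: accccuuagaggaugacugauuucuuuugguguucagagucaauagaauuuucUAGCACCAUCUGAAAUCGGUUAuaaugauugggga
Mir29b-1: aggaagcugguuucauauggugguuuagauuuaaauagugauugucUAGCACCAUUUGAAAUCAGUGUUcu
Mir29b-2: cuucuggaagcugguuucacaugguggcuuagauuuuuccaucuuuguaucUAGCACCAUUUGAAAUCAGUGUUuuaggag
Mir29c: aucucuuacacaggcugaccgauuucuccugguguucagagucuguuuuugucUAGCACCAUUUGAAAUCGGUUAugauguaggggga
Mir29a (chr6:31062660-31062747, minus strand, GRCm38.p6) and Mir29b-1 (chr6:31063023-31063093, minus strand) lie 275 nt apart. Mir29a overlaps no other annotated gene, and the Mir29b-1 hairpin reaches into an exon of the long noncoding RNA Gm27019 on the same strand. Mir29b-2 (chr1:195037040-195037120, plus strand) and Mir29c (chr1:195037547-195037634, plus strand) lie 426 nt apart. Both lie in an exon of the noncoding transcript A330023F24Rik, on the same strand, and in an exon of Cd46 on the opposite strand. The mature miR-29b-3p from either copy is the same molecule, so its reads cannot be assigned to a cluster.

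Libraries held 8591172 to 15305829 miRNA reads, and every guide had at least 46306 reads in each, so counting error was small beside the spread between replicates. Log2 levels of replicates correlated across miRNAs at r = 0.993 to 0.998. The tissue labels were checked on marker miRNAs. miR-206-3p, used as a marker of cerebellum, lay at 790 to 1232 CPM (reads per 1000000 miRNA reads of the library) in cerebellum and at 3.97 to 6.75 CPM in hippocampus. The forebrain list of miR-137-3p, miR-132-3p and miR-221-3p summed to 3717 to 5114 CPM in cerebellum and 20319 to 22901 CPM in hippocampus. Red-cell miRNAs (miR-451a and both miR-144 strands) differed strongly between libraries of 1 tissue: they summed to 783 and 603 CPM in Cdr1as671 libraries 1 and 2 but to 16205 CPM in Cdr1as671 library 3, against 6326 to 32949 CPM in WT cerebellum and 2583 to 3574 CPM in hippocampus.

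The family was abundant in both tissues and about 3 times as large a part of the miRNA reads in hippocampus. Together the 3 guides took 2.90% ± 0.15 of the reads in WT cerebellum and 9.24% ± 0.18 in WT hippocampus (SD, n = 3 each). In the mutants the share was 2.70% ± 0.07 in CyrKO, 3.02% ± 0.11 in Cdr1as671 and 2.83% ± 0.10 in CyrKOCdr1as671 cerebellum, and 8.77% ± 0.22 in CyrKO hippocampus. The tissues lay far apart. Within hippocampus the CyrKO libraries (8.55% to 8.98%) lay just under the WT libraries (9.04% to 9.37%), as did 4.27% of single miRNAs tested. In cerebellum the Cdr1as671 libraries (2.95% to 3.15%) lay above those of CyrKO (2.63% to 2.77%) and of the double mutant (2.72% to 2.92%), while WT overlapped each mutant group. Of single miRNAs, 14.8% lay wholly lower in the double mutant than in Cdr1as671, and the share for CyrKO against Cdr1as671 was not computed. Shares and CPM fall when another miRNA takes more reads. Mean miR-7a-5p was 4314 CPM in WT and 25224 CPM in CyrKO hippocampus, and 590 CPM in Cdr1as671 and 37299 CPM in double-mutant cerebellum. Its part in these shares was not tested.

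miR-29a-3p, the guide of the chromosome 6 cluster, had 13864, 11837 and 13063 CPM in the 3 WT cerebellum libraries and 12579.6, 12064 and 12252 CPM in CyrKO cerebellum. In Cdr1as671 cerebellum it had 13777, 14533 and 12207 CPM, and in CyrKOCdr1as671 cerebellum 11710.5, 12158 and 11846 CPM. These 12 values run together, with the double mutant at the low end. In hippocampus it had 35525, 35549.5 and 38108 CPM in WT and 33554, 32955 and 34798 CPM in CyrKO, so that each hippocampus library was above each cerebellum library and each CyrKO hippocampus library below each WT one.

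miR-29b-3p, the product of both clusters, had 9656, 10054 and 9912 CPM in WT cerebellum and 9125, 9754 and 8942 CPM in CyrKO cerebellum. It had 10271, 9310.4 and 13162 CPM in Cdr1as671 and 9940.5, 10846 and 12090.2 CPM in CyrKOCdr1as671 cerebellum. Its 2 highest cerebellum values were therefore library 3 of Cdr1as671 and library 3 of the double mutant. In hippocampus it had 38820.5, 41548 and 40008 CPM in WT and 39279, 37779.7 and 39441 CPM in CyrKO, which overlap. In each cerebellum library but these 2, miR-29a-3p was the more abundant guide by reads, and in each hippocampus library miR-29b-3p was.

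miR-29c-3p, the third guide, had 6862, 5552 and 6092 CPM in WT cerebellum and 5425, 5852 and 5128 CPM in CyrKO cerebellum. It had 5436, 5753 and 6157 CPM in Cdr1as671 and 5597, 5458 and 5252 CPM in CyrKOCdr1as671 cerebellum. All 4 cerebellum groups overlap. In hippocampus it had 16041, 15996 and 15583 CPM in WT and 14904, 14755 and 15583 CPM in CyrKO. It was the least abundant guide in each library. Orders between different miRNAs rest on read numbers with no correction for ligation efficiency, and the strands are of nearly equal length, so no length correction was made.

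**Figure D1:**
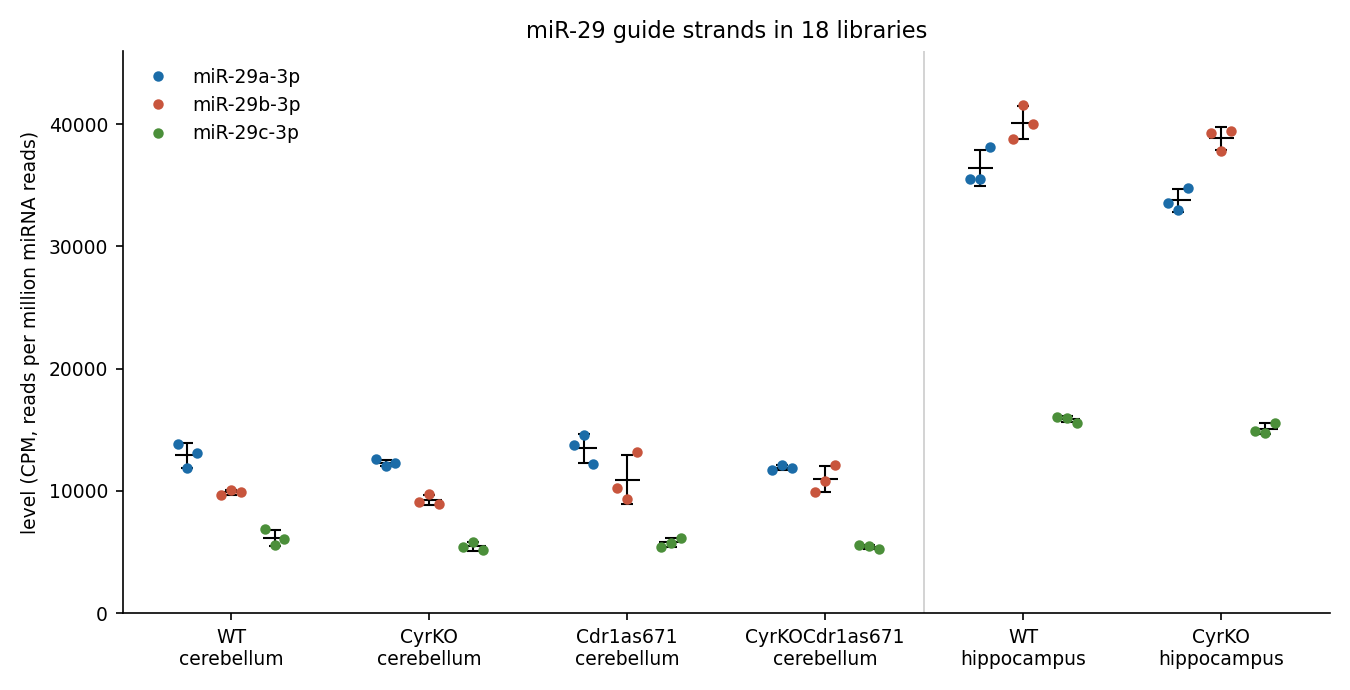
Levels of the 3 miR-29 guide strands in CPM (vertical axis, linear) in each of the 18 libraries, by group (horizontal axis); coloured points are libraries, black bars the mean and SD of 3. The hippocampus libraries stand above all cerebellum libraries for each guide, and miR-29b-3p passes miR-29a-3p in hippocampus.

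Ordered by group mean, the guides placed WT hippocampus highest, CyrKO hippocampus next and the 4 cerebellum groups below. Neighbouring cerebellum groups overlapped for each guide. The 2 hippocampus groups overlapped for miR-29b-3p and miR-29c-3p but not for miR-29a-3p. From the lowest to the highest library, miR-29b-3p spanned 4.65-fold, miR-29a-3p 3.25-fold and miR-29c-3p 3.13-fold.

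The comparison of hippocampus with cerebellum asks how the family differs between tissues, and it was made separately in WT and in CyrKO mice. All 3 guides rose in hippocampus in both genotypes, and miR-29b-3p rose most. Mean CPM in WT was 2.82-fold higher for miR-29a-3p (36394 ± 1484 against 12921 ± 1021), 4.06-fold for miR-29b-3p (40126 ± 1367 against 9874 ± 202) and 2.57-fold for miR-29c-3p (15873 ± 252 against 6169 ± 658; SD, n = 3 each). In CyrKO the folds of mean CPM were 2.75, 4.19 and 2.76. By gain in CPM, miR-29b-3p ranked second of 746 miRNAs tested in WT with 30252 CPM, after miR-125b-5p with 38168 CPM, and miR-29a-3p ranked next with 23473 CPM.

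Scaled by TMM, which sets the bulk of miRNAs equal between libraries, the rise was smaller, and it passed the test for each guide (edgeR quasi-likelihood test, Benjamini-Hochberg adjusted). The log2 difference in WT was 0.95 (SE 0.083, adjusted p = 3.35e-08) for miR-29a-3p, 1.47 (SE 0.082, adjusted p = 1.56e-10) for miR-29b-3p and 0.81 (SE 0.095, adjusted p = 1.17e-06) for miR-29c-3p. In CyrKO the log2 differences were 0.88, 1.49 and 0.88. Differences between tissues were the rule: 70% of 746 miRNAs passed in WT and 37.5% were higher in hippocampus, and in CyrKO 72.1% passed and 38.9% were higher. A call alone therefore does not set the guides apart, and 108 of 746 miRNAs had a larger log2 rise than miR-29b-3p in WT. Among the 112 with a mean of at least 1000 CPM in 1 of the WT tissues, 10 did.

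The size of these differences depends on the scaling, while their direction does not. With library totals in place of TMM the median log2 difference of all miRNAs moved from 0.028 to 0.58 in WT and from 0.098 to 0.68 in CyrKO. The calls then split into 402 higher and 126 lower in WT, against 280 and 242 with TMM, and into 419 and 126 in CyrKO, against 290 and 248. Relative to the median of all miRNAs, the guides keep about the same distance under both.

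**Figure D2:**
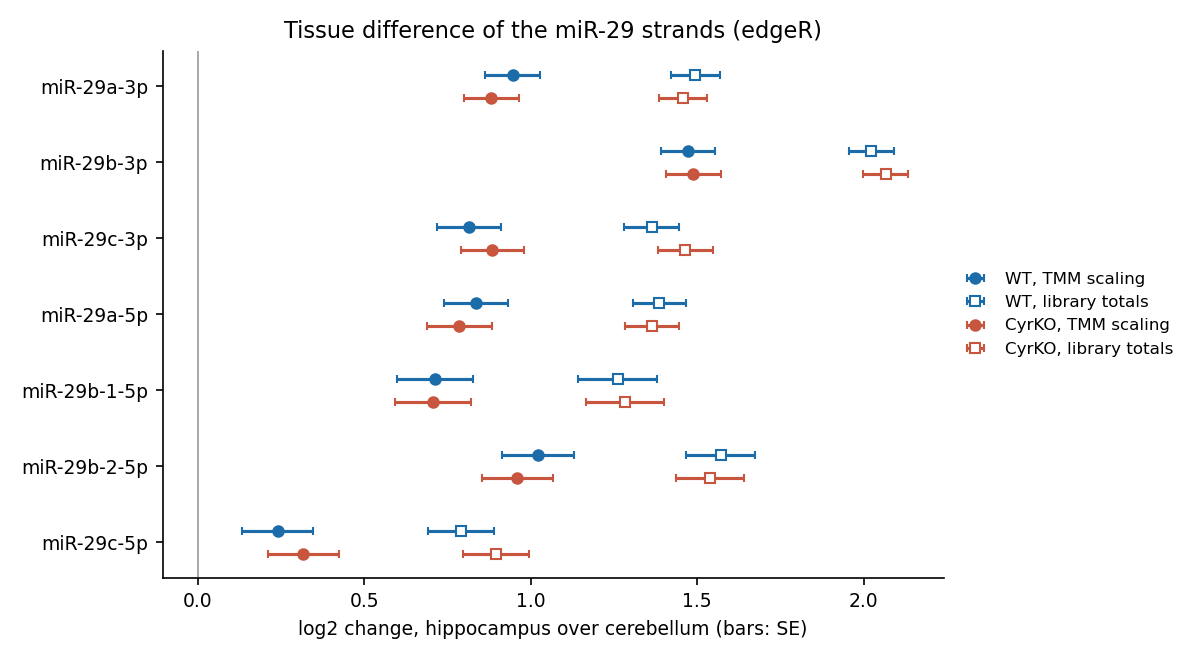
Log2 difference of each miR-29 strand between hippocampus and cerebellum (horizontal axis; bars are SE from edgeR) in WT (blue) and CyrKO (red), with TMM scaling (filled circles) and library totals (open squares). miR-29b-3p has the largest value and miR-29c-5p the smallest, and library totals move all strands to the right by about the same amount.

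Markers of other cell types moved with the tissue as well. In WT the summed vessel miRNAs (miR-126a and miR-143/145a strands, 4 of 4 detected) lay at 8090 to 8840 CPM in cerebellum and 11451 to 11895 CPM in hippocampus, and the 3 detected immune miRNAs at 216 to 234 and 576 to 644 CPM. Of these 3, miR-146a-5p had means of 138 and 528 CPM in cerebellum and hippocampus, while miR-223-3p had 66.7 and 66.2 CPM and miR-155-5p 18.1 and 12.6 CPM. Oligodendrocyte miRNAs (3 of 3) lay at 8294 to 11006 and 9564 to 15623 CPM, and neuronal miRNAs (4 of 4) at 340968 to 373252 and 264492 to 294639 CPM. The neuronal list was split: mean CPM was lower in hippocampus for miR-124-3p (209629 and 127356) and miR-9-5p (115693 and 104399) and higher for miR-128-3p (21522 and 30737) and miR-138-5p (5927 and 20579). No listed marker was at 0 in any library. Their part in the miR-29 difference was not tested, and in whole tissue fewer cells of a type and less RNA per cell cannot be told apart.

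The choroid plexus list (6 of 6 detected) ranged from 3535 to 15741 CPM among the WT hippocampus libraries, lowest in library 3, and from 8572 to 10103 CPM in WT cerebellum. This list was split too. Its most abundant member, miR-204-5p, had WT means of 8790 CPM in cerebellum and 6626 CPM in hippocampus. Means were higher in hippocampus for miR-34b-5p (169 and 783), miR-34c-5p (260 and 1222), miR-448-3p (8.66 and 96.1), miR-449a-5p (60.3 and 99.1) and miR-211-5p (1.39 and 2.86). Leaving out any 1 of the 12 libraries kept miR-29b-3p between 1.46 and 1.55 in WT and between 1.42 and 1.57 in CyrKO on the log2 scale. All 3 guides passed in each of these 12 fits per genotype.

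The make-up of the family also shifted between tissues, towards miR-29b-3p. In WT its share of the summed guides was 34.2% ± 2.4 in cerebellum and 43.4% ± 1.1 in hippocampus, while miR-29a-3p went from 44.6% ± 1.3 to 39.4% ± 1.2 and miR-29c-3p from 21.3% ± 1.2 to 17.2% ± 0.6 (SD, n = 3 each). In CyrKO the share of miR-29b-3p was 34.3% ± 0.9 in cerebellum and 44.3% ± 0.4 in hippocampus. A ratio of 2 strands within a library needs no scaling between libraries, so the shift was tested on such ratios.

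miR-29b-3p over miR-29a-3p was 0.70, 0.85 and 0.76 in the WT cerebellum libraries and 0.73, 0.81 and 0.73 in CyrKO cerebellum. In hippocampus it was 1.09, 1.17 and 1.05 in WT and 1.17, 1.15 and 1.13 in CyrKO, so the tissues did not overlap in these genotypes. The ratio was 1.48-fold higher in hippocampus (log2 difference 0.57, exact permutation test of tissue within genotype, two-sided p = 0.005, the smallest this design gives, adjusted p = 0.0375 over 30 ratio tests). This adjusted p depends on several ratios, some with strands in common, having the same smallest p. Within WT alone the log2 difference was 0.53 and within CyrKO alone 0.61, each with an exact permutation p of 0.1, the smallest possible there.

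The ratio of miR-29b-3p to miR-29c-3p moved the same way, from 1.62 ± 0.20 to 2.53 ± 0.09 in WT and from 1.70 ± 0.04 to 2.58 ± 0.05 in CyrKO (SD, n = 3 each). It was 1.54-fold higher in hippocampus (exact permutation p = 0.005, adjusted p = 0.0375), with no overlap. miR-29c-3p over miR-29a-3p was 0.48 ± 0.02 and 0.44 ± 0.02 in WT cerebellum and hippocampus and 0.44 ± 0.04 and 0.45 ± 0.002 in CyrKO. That difference did not pass (log2 difference -0.060, exact permutation p = 0.24, adjusted p = 0.56). miR-29b-3p, which shares a cluster with each of these 2 guides, thus rose against both of them.

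The passenger strands, made from the same hairpins, were also higher in hippocampus. In WT, miR-29a-5p had 170 to 186 CPM in cerebellum and 462 to 474 CPM in hippocampus. miR-29b-1-5p had 17.4 to 19.7 and 42.5 to 46.9 CPM, and miR-29b-2-5p had 35.7 to 38.1 and 98.6 to 118 CPM. miR-29c-5p had 109 to 123 and 192 to 209 CPM. For each of the 4, all hippocampus libraries lay above all cerebellum libraries in WT, as they did for the guides and for 54% of all miRNAs tested. In CyrKO, too, no strand overlapped, where 58.8% of all miRNAs lay wholly higher.

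**Figure D3:**
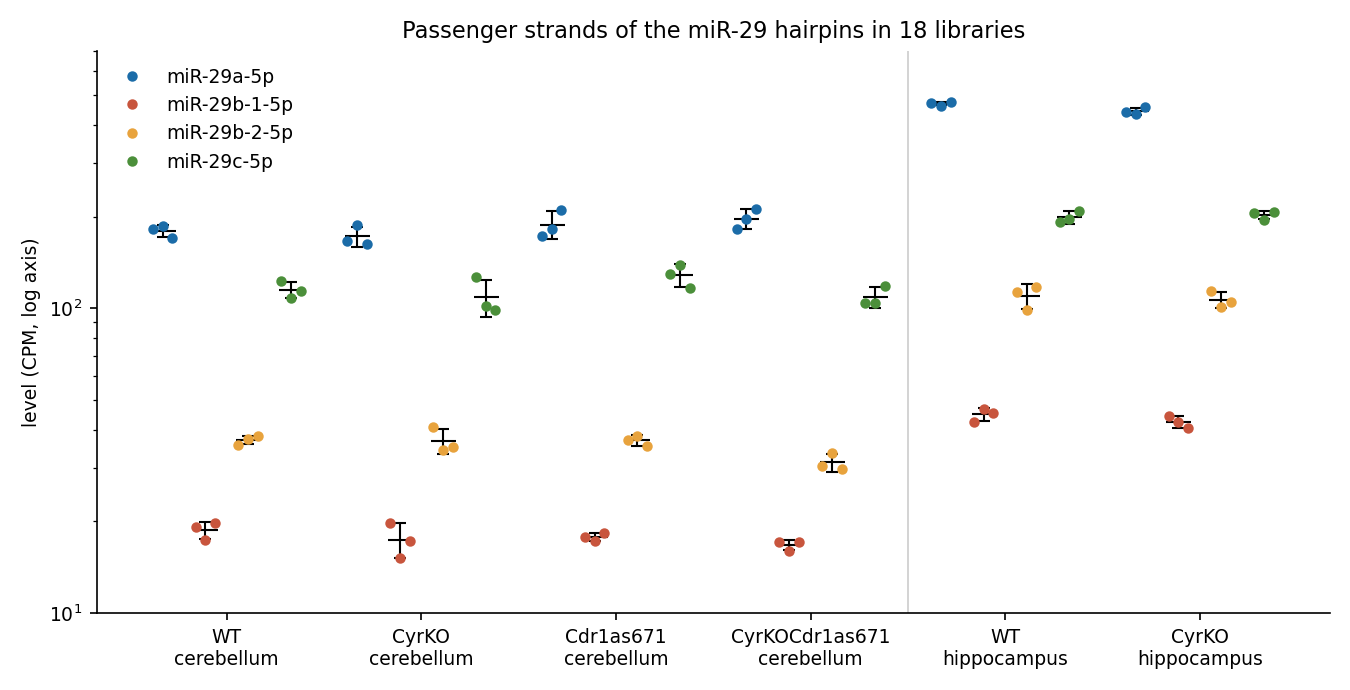
Levels of the 4 passenger strands of the miR-29 hairpins in CPM (vertical axis, log scale) in each library, by group (horizontal axis); points are libraries, black bars the mean and SD of 3. Each passenger is higher in hippocampus, and miR-29c-5p has the smallest gap between tissues.

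With TMM, miR-29a-5p rose by 0.84 on the log2 scale in WT (adjusted p = 1.07e-06), miR-29b-1-5p by 0.71 (adjusted p = 3.68e-05) and miR-29b-2-5p by 1.02 (adjusted p = 3.24e-07). Both miR-29b passengers thus had smaller log2 differences than the 1.47 of their common guide. miR-29c-5p had a log2 difference of 0.24 (SE 0.11, adjusted p = 0.057) in WT and did not pass, and of 0.32 (SE 0.11, adjusted p = 0.0151) in CyrKO, where it passed. The difference between these 2 values was 0.077 (SE 0.15). The miR-29c-5p call depended on the setting. In WT it passed in 8 of the 12 fits with 1 library left out. With library totals, which shift all miRNAs, it also passed in WT (log2 difference 0.79, adjusted p = 2.88e-06 by edgeR). Without CyrKO hippocampus replicate 3 it did not pass in CyrKO (adjusted p = 0.069 by edgeR).

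The guide-to-passenger ratio, which sets the guide against the strand made with it from the same hairpin, rose in hippocampus for miR-29b and miR-29c. miR-29b-3p over the sum of miR-29b-1-5p and miR-29b-2-5p went from 177 ± 6.5 to 260 ± 22.2 in WT and from 173 ± 23.2 to 261 ± 11.6 in CyrKO. miR-29c-3p over miR-29c-5p went from 53.5 ± 2.4 to 80 ± 4.8 in WT and from 50.8 ± 7.3 to 74.5 ± 1.6 in CyrKO (SD, n = 3 each). Both were 1.49-fold higher in hippocampus, with no overlap between tissues in WT and CyrKO (log2 differences 0.58 and 0.57, exact permutation p = 0.005 and adjusted p = 0.0375 for each). In double-mutant cerebellum library 3 the miR-29b ratio was 258, inside the hippocampus range, which began at 245.5 in WT library 3. In Cdr1as671 library 3 it was 245.2, just under that range.

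For miR-29a the ratio of guide to passenger was 72.2 ± 7.5 in WT cerebellum and 77.6 ± 2.6 in WT hippocampus, and 71.7 ± 6.3 and 76.1 ± 0.3 in CyrKO. The log2 difference of 0.10 did not pass (exact permutation p = 0.085, adjusted p = 0.50). The higher ratio in hippocampus was therefore seen for miR-29b-3p and also for miR-29c-3p. Whether the change for miR-29a differs from the others was not tested.

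**Figure D4:**
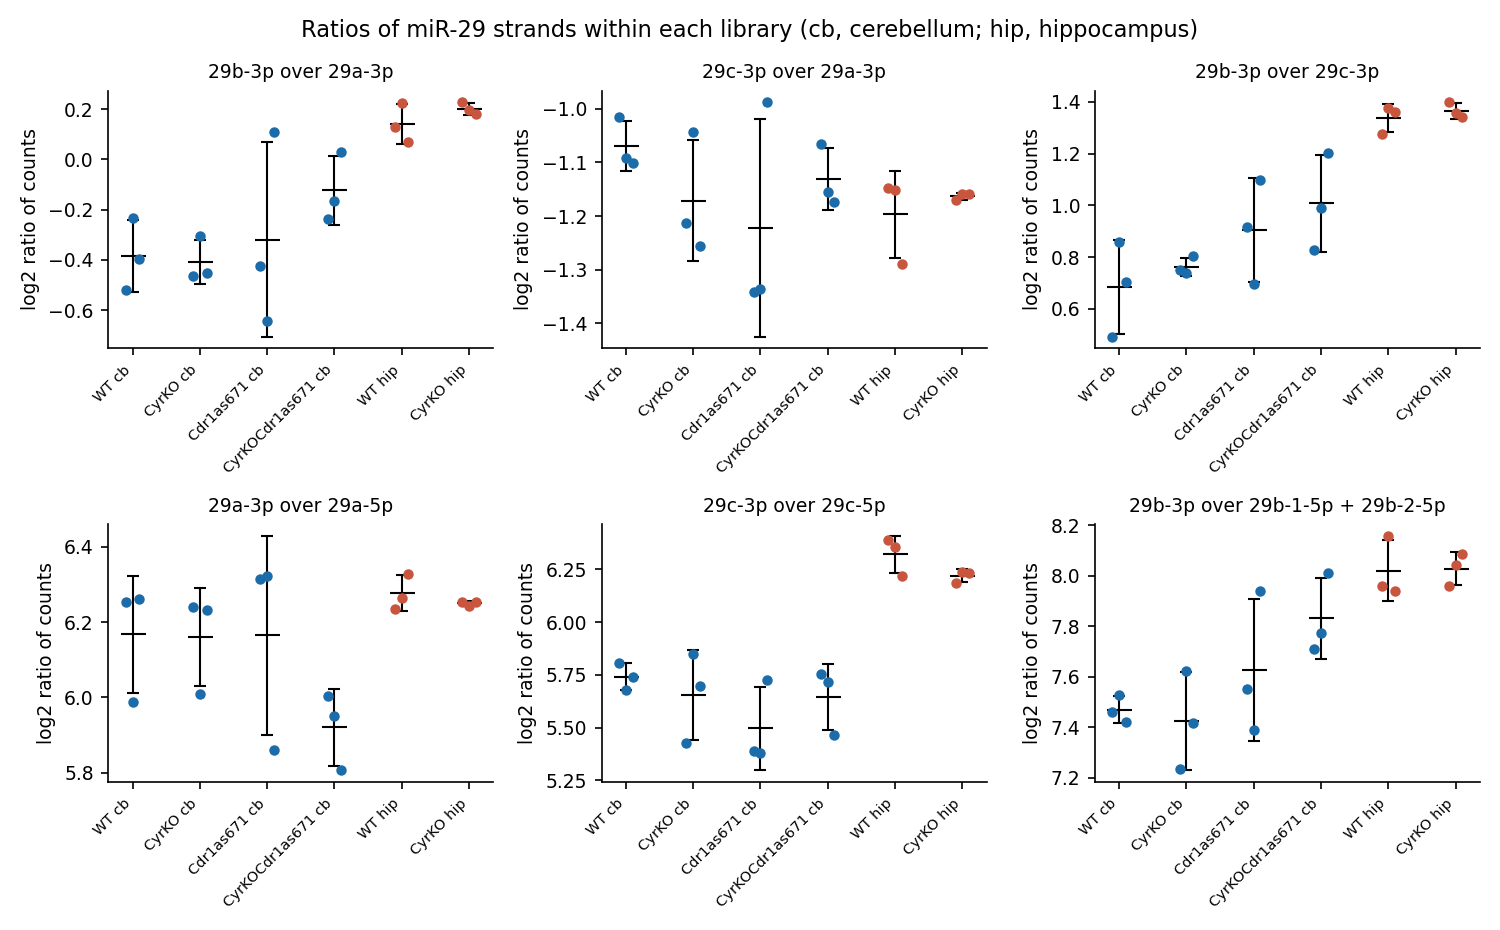
Log2 ratios of read counts within each library (vertical axes) for 3 pairs of guides (top) and 3 guide-to-passenger pairs (bottom), by group; points are libraries (cerebellum blue, hippocampus red), black bars the mean and SD of 3. In WT and CyrKO the tissues separate in both ratios of miR-29b-3p to another guide and in the guide-to-passenger ratios of miR-29b and miR-29c. Cdr1as671 library 3 and double-mutant library 3 reach into or near the hippocampus range for miR-29b-3p over miR-29a-3p and for the guide-to-passenger ratio of miR-29b.

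Loss of Cyrano asks whether the family depends on that RNA. In cerebellum no guide passed in CyrKO against WT (edgeR, 0 of 3, where 0.898% of 668 miRNAs passed), and none had an unadjusted p under 0.05 by edgeR or DESeq2. The log2 differences were -0.069 (SE 0.086) for miR-29a-3p, -0.086 (SE 0.079) for miR-29b-3p and -0.17 (SE 0.10) for miR-29c-3p, each with an adjusted p of 0.999 by edgeR. Leaving out 1 library gave -0.14 to -0.0051 for miR-29a-3p and -0.25 to -0.077 for miR-29c-3p (the ends without WT replicates 2 and 1), and -0.13 to -0.028 for miR-29b-3p (without CyrKO replicates 2 and 3). The CPM of the groups overlapped for each of the 7 strands.

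In hippocampus no guide passed either (edgeR, 0 of 3, where 0.57% of 702 miRNAs passed), and again none had an unadjusted p under 0.05 by edgeR or DESeq2. The log2 differences were -0.13 (SE 0.070, adjusted p = 0.846) for miR-29a-3p, -0.065 (SE 0.066, adjusted p = 0.881) for miR-29b-3p and -0.091 (SE 0.065, adjusted p = 0.846) for miR-29c-3p by edgeR. The CPM of miR-29a-3p and miR-29a-5p did not overlap and were lower in CyrKO, as were 4.27% of all miRNAs tested. Without WT hippocampus replicate 3, the library with the highest miR-29a-3p and the fewest choroid plexus reads, the miR-29a-3p value was -0.078.

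The effect of CyrKO did not pass as different between the tissues for any guide (edgeR interaction, 0 of 3, where 0.402% of 746 miRNAs passed, and none with an unadjusted p under 0.05 by edgeR or DESeq2). That difference, hippocampus minus cerebellum, was -0.064 (SE 0.12), 0.015 (SE 0.11) and 0.071 (SE 0.13) on the log2 scale for miR-29a-3p, miR-29b-3p and miR-29c-3p.

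The deletion at the miR-671 site of Cdr1as left all 3 guides without a call in cerebellum (edgeR, 0 of 3, where 2.26% of 665 miRNAs passed, and none with an unadjusted p under 0.05 by edgeR or DESeq2). The log2 difference of Cdr1as671 to WT was 0.020 (SE 0.11) for miR-29a-3p, 0.11 (SE 0.14) for miR-29b-3p and -0.13 (SE 0.12) for miR-29c-3p. The SD of miR-29b-3p was 2005 CPM in Cdr1as671 against 202 CPM in WT, with library 3 as its high value. Red-cell miRNAs summed to 16205 CPM in library 3, within the 6326 to 32949 CPM of WT cerebellum. Cdr1as671 libraries 1 and 2, at 783 and 603 CPM, lay under that range. Without library 3 the value for miR-29b-3p was -0.077 (SE 0.081), so its sign rests on library 3. With library 3 alone standing for Cdr1as671 it was 0.48. Library 3 also had the highest miR-29b-3p over miR-29a-3p ratio of any cerebellum library, 1.08, and a low miR-29a-3p over miR-29a-5p ratio of 58.0. The part of red-cell RNA in these values was not tested.

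In the double mutant, too, no guide passed against WT (edgeR, 0 of 3, where 2.57% of 662 miRNAs passed). miR-29b-3p had an unadjusted p under 0.05 by edgeR and by DESeq2, as the only guide. Its mean was 10959 ± 1079 CPM against 9874 ± 202 in WT (SD, n = 3 each), with overlapping libraries, and its log2 difference was 0.23 (SE 0.084, unadjusted p = 0.0192, adjusted p = 0.177 by edgeR). The authors' deposited table gives 0.23 with an adjusted p of 0.163. Tested without the filter on low counts, the value of 0.23 passed (adjusted p = 0.0434 by edgeR), where 61 of 1312 miRNAs passed against 17 of 662 with the filter. Without double-mutant replicate 3 the value for miR-29b-3p was 0.15 (adjusted p = 0.439 by edgeR). miR-29a-3p and miR-29c-3p had log2 differences of -0.038 (SE 0.082) and -0.10 (SE 0.092).

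Among the passengers, miR-29a-5p was the only one with an unadjusted p under 0.05 in the double mutant (log2 difference 0.22, SE 0.089, adjusted p = 0.225 by edgeR). The CPM of miR-29b-1-5p and miR-29b-2-5p did not overlap WT and were lower, as were 21.8% of all miRNAs tested. Their log2 differences with TMM were -0.080 (SE 0.11) and -0.16 (SE 0.096). With the replicate number as a block 35 miRNAs passed in place of 17, and again no guide did (miR-29b-3p 0.23, adjusted p = 0.141).

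The guide-to-passenger ratio of miR-29b was 228.6 ± 26.0 in the double mutant and 177 ± 6.5 in WT (SD, n = 3 each), 1.28-fold higher with no overlap. With 3 libraries against 3 the exact permutation test cannot go below the p of 0.1 found here (adjusted p = 0.50), so this difference cannot pass. Of the 24 ratio comparisons between genotypes it was the only one without overlap, and none could reach the threshold. Full separation has an exact permutation p of 0.1 in each of them, so 1 among 24 does not set this ratio apart. miR-29b-3p over miR-29a-3p was 0.92 ± 0.09 in the double mutant, with overlap with WT (exact permutation p = 0.2, adjusted p = 0.56).

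Against each single mutant the double mutant had no called guide. Against CyrKO (edgeR, 0 of 3, where 2.33% of 688 miRNAs passed), miR-29b-3p had a log2 difference of 0.29 (SE 0.13, unadjusted p = 0.0378, adjusted p = 0.215), the only guide with an unadjusted p under 0.05 by edgeR or DESeq2. Each double-mutant library lay above each CyrKO library for it, as for 8.43% of all miRNAs tested. Against Cdr1as671 (edgeR, 0 of 3, where 0.727% of 688 miRNAs passed, and none with an unadjusted p under 0.05 by edgeR or DESeq2), its log2 difference was 0.11 (SE 0.13). That sign did not hold throughout: leaving out 1 library gave -0.015 (without Cdr1as671 replicate 2) to 0.34 (without its replicate 3), and library 3 alone as Cdr1as671 gave -0.23. The CPM of miR-29a-3p, miR-29b-1-5p and miR-29b-2-5p lay wholly under those of Cdr1as671, as did 14.8% of all miRNAs tested. Against CyrKO only miR-29b-2-5p of the 7 strands did, where 21.1% of all miRNAs tested did.

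The interaction of the 2 mutations, which asks whether the double mutant departs from the sum of the single effects, called no guide (edgeR, 0 of 3, where 0.145% of 688 miRNAs passed, and none with an unadjusted p under 0.05 by edgeR or DESeq2). Its log2 values were -0.019 (SE 0.13), 0.18 (SE 0.18) and 0.17 (SE 0.15) for miR-29a-3p, miR-29b-3p and miR-29c-3p. These 4 cerebellum groups share the WT libraries, so the comparisons with WT are not independent of each other. A p that misses the threshold does not show equal levels: the standard errors of 0.065 to 0.14 in the comparisons with WT set what could be seen.

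**Figure D5:**
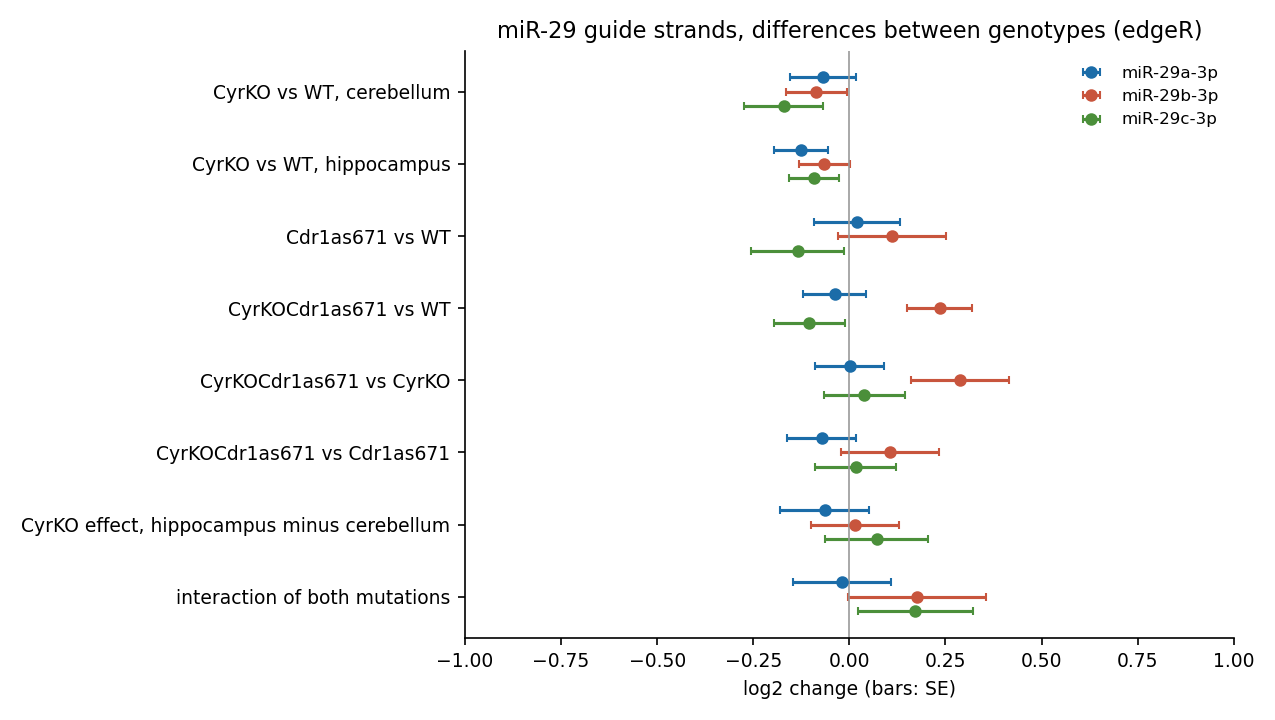
Log2 differences of the 3 guides (horizontal axis; bars are SE from edgeR) in 4 comparisons of a mutant with WT, 2 of the double mutant with a single mutant, and 2 interactions (vertical axis). All values lie within 0.3 of 0, and miR-29b-3p is farthest from 0 in the 2 comparisons of the double mutant with WT and with CyrKO.

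Other miRNAs reported as targets of directed degradation or of ZSWIM8 were read from the same fits, 9 of the 11 listed having been tested. Their levels are set beside that of miR-29b-3p as a description only, since the list was chosen with earlier results of these data known. The part of directed degradation in the tissue difference of miR-29b-3p was not tested. In WT, 8 of 9 were higher in hippocampus and 1 lower, with a median log2 difference of 1.60 against 0.028 for all miRNAs, of which 37.5% were higher and 70% passed in either direction. The log2 difference was 2.57 for miR-7a-5p, 2.37 for miR-222-3p, 2.26 for miR-221-3p and 1.60 for miR-335-3p, each above the 1.47 of miR-29b-3p, and miR-485-3p fell by 0.33. In CyrKO 6 of 9 were higher and 3 lower (both miR-7 guides and miR-485-3p), with a median of 1.19 against 0.098 for all, of which 38.9% were higher and 72.1% passed. miR-221-3p is also in the forebrain list used above.

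Between genotypes, only the 2 miR-7 guides of that list passed. miR-7a-5p rose by 5.34 and miR-7b-5p by 5.56 on the log2 scale in CyrKO cerebellum, and by 2.53 and 2.75 in CyrKO hippocampus. Both also rose in the double mutant against WT and against each single mutant, and no member passed in Cdr1as671 against WT. The miR-29b-3p values of -0.086 and -0.065 in the 2 CyrKO comparisons stand beside these, in the same libraries, and did not pass. Over all miRNAs tested, 6 passed in CyrKO cerebellum and 4 in CyrKO hippocampus.

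The miRNAs whose pattern was most like each guide were found among 242 miRNAs with a mean of at least 100 CPM, by Pearson's r of log2 TMM-scaled CPM over the 18 libraries. For miR-29a-3p they were miR-222-3p (r = 0.987), miR-221-3p (r = 0.987) and miR-1983 (r = 0.982). For miR-29b-3p they were miR-138-5p (r = 0.984), the family's own passenger miR-29a-5p (r = 0.982) and miR-380-3p (r = 0.982). For miR-29c-3p they were miR-221-3p (r = 0.974), miR-29a-3p (r = 0.972) and miR-551b-3p (r = 0.971). The libraries form 2 tissue clusters, so these values describe mostly the tissue difference.

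Within the 12 cerebellum libraries, miR-29b-3p followed miR-29a-5p (r = 0.92) and miR-138-5p (r = 0.77), while its r with miR-29a-3p was -0.070 and with miR-29c-3p 0.41. miR-29a-3p and miR-29c-3p had an r of 0.46 there. Within the 6 hippocampus libraries the 3 guides correlated with each other at r = 0.80 to 0.85. These are descriptions over libraries that include 4 genotypes in cerebellum and share their scaling factors, and no test was made of them.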

How the data were processed

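Small RNAs of 18 to 32 nt were sequenced from 5 ug of Trizol-extracted total RNA in 18 libraries, per the labels' protocols. The labels give RNA integrity numbers of 8.5 to 9.5. Of the tools, cutadapt (no version) and DESeq2 1.10 are listed in the submitters' processing notes, while read assignment, annotation and build were not given in the sources used here. In 4 tables, each setting 1 mutant group against WT, the authors deposited raw read counts per miRNA. The deposited signal columns (counts over a size factor, per the file headers) and the authors' score, a Wald statistic per the file headers, were not used. The authors' log2 fold changes with their standard errors and p-values, per the file headers, served as an alternative. WT cerebellum counts, identical in 3 tables, entered once.

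In edgeR 4.0.16 (R 4.3.3), miRNAs were kept by filterByExpr (minimum count 10, minimum total 15), scaled by TMM and tested by the robust quasi-likelihood test over all miRNAs, with Benjamini-Hochberg adjustment at 0.05. Standard errors are the log2 difference over the square root of F. Comparisons with WT used 6 libraries. Contrasts of the double with the single mutants used the 12 cerebellum libraries, and tissue contrasts the 12 libraries of WT and CyrKO mice. Levels are given as CPM over each library's miRNA reads. Log2 count ratios were compared by exact two-sided permutation, with adjustment over 30 tests, some of which share strands. The smallest p is 0.005 between tissues and 0.1 for 3 against 3. Alternatives were RLE factors, library totals, 2 other filters, DESeq2 1.42.0, other sets of libraries and leaving out each library. The edgeR procedure was run on simulated counts with changes larger than the genotype differences of the guides. That run does not show whether differences as small as those could be detected.

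Replicate numbers come from the labels. Over 441 miRNAs, same-numbered libraries deviated together in each pair for CyrKO against WT cerebellum (r = 0.244 to 0.609). They did so too for the double mutant against WT (r = 0.401 to 0.721). For the double mutant against CyrKO they did not in each pair (r = -0.13 to 0.43). Whether the numbers pair the libraries was therefore not settled. The main fits and the ratio tests between genotypes did not use a pairing by number. A fit with the replicate number as a block was run as an alternative. All 7 strands were named in each comparison, with the 3 miRNAs most like each guide and members of the lists. Members and lists were chosen with earlier results of these data known. miR-30b-5p, miR-30c-5p and 2 of 5 immune list members were not analysed here. Sequences and hairpin positions are RefSeq's (GRCm38.p6) and overlaps GENCODE's (M21).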

Additional observations from a re-analysis of the deposited data

How the results depend on the processing

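In each alternative that kept all 3 guides, all passed between tissues in both genotypes, and the 4 called tissue ratios passed with each library left out. Leaving out the 10 most abundant miRNAs removed guides from the tissue and hippocampus fits. Between genotypes, 1 guide was called in 1 setting, the double mutant against WT with no filter on low counts. No genotype value that changed sign was called, and the cause was not tested. With library 3 alone standing for Cdr1as671 in 1 cerebellum fit, and assumed to vary like the other groups, Cdr1as671 against WT gave -0.021 for miR-29a-3p, 0.48 for miR-29b-3p and 0.058 for miR-29c-3p, the double mutant against Cdr1as671 gave -0.23 for miR-29b-3p and -0.15 for miR-29c-3p, and the interaction gave 0.053 for miR-29a-3p and -0.16 for miR-29b-3p. With library totals the double mutant gave -0.047 for miR-29a-3p and -0.0086 for miR-29c-3p against CyrKO, and -0.089 for miR-29c-3p against Cdr1as671. The interaction of miR-29a-3p was 0.00092 with RLE factors and with DESeq2 and 0.020 with a filter at 10 CPM, where the CyrKO effect on miR-29b-3p differed between tissues by -0.045. Leaving out 1 library gave -0.063 to 0.099 (miR-29a-3p) and -0.077 to 0.24 (miR-29b-3p) for Cdr1as671 against WT, -0.094 to 0.038 (miR-29a-3p) and -0.17 to 0.0032 (miR-29c-3p) for the double mutant against WT, and -0.015 to 0.34 (miR-29b-3p) and -0.018 to 0.13 (miR-29c-3p) for it against Cdr1as671. It gave -0.043 to 0.12 for the interaction of miR-29a-3p, and -0.18 to 0.0073, -0.081 to 0.087 and -0.071 to 0.14 for the CyrKO effect in hippocampus minus cerebellum on miR-29a-3p, miR-29b-3p and miR-29c-3p. The count of all miRNAs called ranged from 0 to 112 for Cdr1as671 against WT, with the highest without Cdr1as671 replicate 3, and from 6 to 61 for the double mutant against WT. It ranged from 2 to 34 and from 5 to 59 for the double mutant against CyrKO and Cdr1as671, from 0 to 19 for the interaction, from 4 to 7 for CyrKO in hippocampus, from 2 to 5 for the tissue difference of its effect, and from 358 to 554 and 355 to 570 between tissues in WT and CyrKO. The replicate block changed no call of a miR-29 strand (miR-29b-3p in CyrKO against WT cerebellum -0.088, adjusted p = 0.996). In the comparisons in which same-numbered libraries did not deviate together in each pair, same-number correlations ran from -0.65 to 0.67. In no comparison did every library correlate best with its own number. Passenger counts, from 148 reads up, limit the guide-to-passenger ratios.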
